A study of Homo sapiens with 24 samples.

Results

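The 10 alpha and beta tubulin genes TUBB4A, TUBB, TUBB4B, TUBB2A, TUBB2B, TUBB3, TUBB6, TUBA1A, TUBA1B and TUBA1C were followed through lists of RNA regions enriched for N1-methyladenosine (m1A). They were taken from 9319 genes with an enriched region (a peak) in any list, by the RefSeq symbol of each transcript. The set was chosen by its calls, since TUBB4A was known to have a region in all 10 lists, so the calls are given as a description with no test. Of the 10 genes, 9 had at least 1 peak and TUBB had 0.

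Alpha and beta tubulin form the heterodimer from which microtubules are built, and each comes in several isotypes encoded by separate genes with very similar coding sequences. TUBB4A is known mainly from brain, TUBB and TUBB4B are broadly expressed beta isotypes, TUBB3 marks neurons, and TUBA1A, TUBA1B and TUBA1C encode nearly the same alpha protein. Cells hold tubulin levels steady partly through the messenger: when free heterodimers accumulate, tubulin mRNAs are degraded during translation by a route that uses TTC5. The m1A mark is a methyl group on the base-pairing face of adenosine that disturbs reverse transcription, and ALKBH3 is a demethylase that can remove it.

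The material was HEK293T, an established human embryonic kidney cell line. Anti-m1A antibody immunoprecipitation (IP) was done in wild-type cells (WT), cells with ALKBH3 knocked out (KO), untreated wild-type cells of a stress experiment (UT), wild-type cells exposed to 50 µM H2O2 over 30 min (named H2O2 here), and wild-type cells deprived of serum over 16 h (Starve). Each condition had 2 replicate IP libraries and 1 peak list per library. For WT and KO there were also IP libraries of RNA treated with a demethylase. The labels do not say whether the knockout was 1 clone, nor whether replicates were separate cultures, so a p-value here reflects only how far these samples scatter, which may be technical scatter.

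The lists held 2175 to 11362 peaks, fewest in the first WT list and most in the first Starve list. Lists carry no value where no peak was called, so an absent peak means only that none was called. ALKBH3 itself had a peak in 0 lists, and the knockout could therefore not be checked from them. Of 5 genes marking HEK293T cells 4 had a peak in some list, VIM in 5 lists, NEFM in 5, NEFL in 3 and PAX2 in 1, with LHX1 in 0. Of 10 genes marking other cell types only COL1A1 had one, in 2 lists. The descriptions of the UT libraries point to the Starve lists, so every UT value below rests on the file naming.

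TUBB4A carried 51 of the 87 tubulin peaks (58.6%), in all 10 lists and on all 6 of its RefSeq transcripts. By comparison, 1.14% of the 9319 genes had a peak in each of the 10 lists and 28.7% in 1 list only, and the median gene had a peak in 3 lists. Peaks that overlapped by at least 1 nt on a transcript were merged into 29 tubulin regions. Of these, 4 were held in all 10 lists, all on TUBB4A, and 18 in 1 list only. The 18 include the TUBA1A regions, which repeat over 3 isoforms. The share of all regions in 1 list only is not given here, and the 28.7% above counts genes. The chosen gene thus supplied 4 of the 93 regions held in all 10 lists, out of 38299 regions (0.243%). Each transcript was counted separately, so the 51 peaks and 4 regions of TUBB4A may repeat fewer sites over its isoforms.

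**Figure D1:**
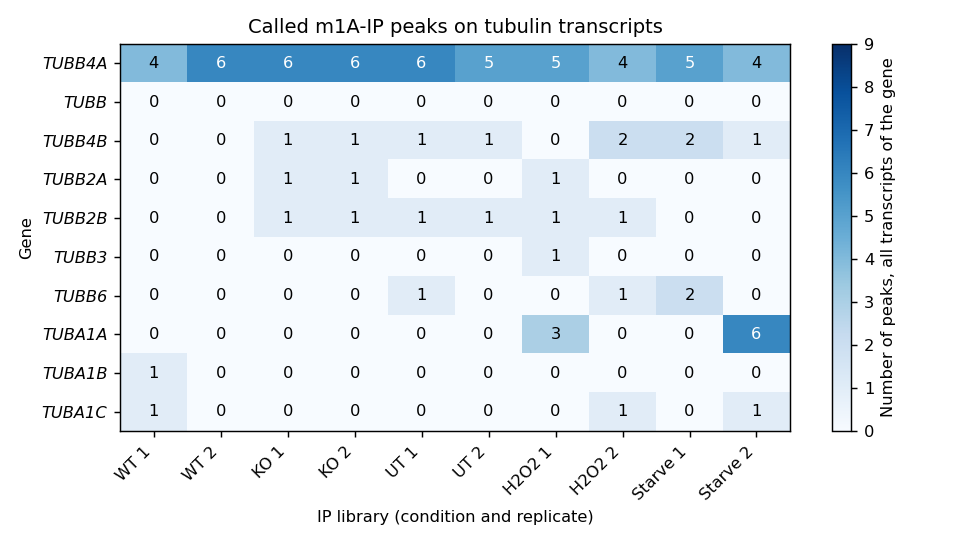
Number of called peaks for each tubulin gene (rows) in each IP library (columns, condition and replicate), summed over the gene's transcripts. TUBB4A has 4 to 6 peaks in every library, TUBB has 0 in every library, and the other genes appear in 1 to 7 libraries.

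The number of tubulin genes with a peak was 3 and 1 in the WT lists, 4 and 4 in KO, 4 and 3 in UT, 5 and 5 in H2O2 and 3 and 4 in Starve. All genes gave other proportions: 13.5% and 21.9% of them had a peak in the WT lists, 22.1% and 22.4% in KO, 39.7% and 45.4% in UT, 37.5% and 21.6% in H2O2 and 51.9% and 41.2% in Starve. The tubulin counts therefore did not follow the length of the lists. The first Starve list, with 11362 peaks, held 3 tubulin genes, and the second H2O2 list, with 3903, held 5. Those of the first WT list included TUBA1B and TUBA1C, whose folds of 1.22 and 1.21 exceeded 0.0% of folds in that list.

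On TUBB4A peaks were called at nearby positions of several isoforms, and whether the same reads were counted for them was not tested. The main transcript NM_006087 had peaks between nt 214 and 464, counted from the transcript start. Those of NM_001289130 and NM_001289131 began at the same nucleotide or up to 34 nt away (median 0), and those of NM_001289123 began 34 to 82 nt nearer the transcript start (median 76 nt). NM_001289127 had a peak in 7 lists and NM_001289129 in 4, the latter in the second WT, both KO and the first UT list. TUBB4A lies on chromosome 19 (GRCh38.p14 6494319 to 6502848). Its exons and untranslated regions were not placed, since no annotation of the hg19 build was used here.

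The summit pileup is the coverage at the highest point of a peak, with no stated correction for sequencing depth. On NM_006087 it was 67 and 284 in WT. It was 278 and 212 in KO, 361 and 203 in UT, 215 and 300 in H2O2, and 137 and 155 in Starve. The first WT library was the lowest of the 10 and the first UT library the highest, and the 2 WT values enclosed both KO values. In the first WT library the median pileup of the 93 regions was 340, within the range of 306 to 611 over libraries, so its low TUBB4A value did not go with a low median. A pileup rises with the amount of transcript as well as with methylation, and these cannot be told apart in the lists.

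**Figure D2:**
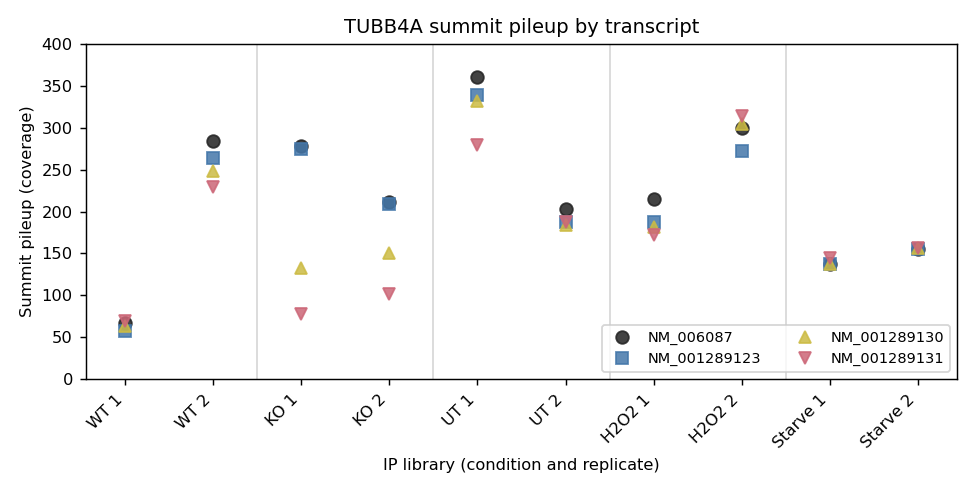
Summit pileup (coverage) of 4 TUBB4A transcripts in each IP library. The 4 transcripts lie close together in WT, Starve and H2O2 libraries, while in KO NM_006087 (278 and 212) lies above NM_001289131 (78 and 102).

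Set against the median region of each library, log2 pileup on NM_006087 was −2.34 and −1.11 in WT and −0.14 and −0.59 in KO. Both KO values lay above both WT values. The difference in this relative pileup was 1.36 (SE 0.42, 95% interval 0.43 to 2.29), and it did not pass the threshold of 0.05 (limma, adjusted p = 0.0656 over 93 regions). By the same test 4 regions were higher in KO (4.3%) and 6 lower (6.45%), and 0 of these lay on TUBB4A. The result rests on the WT libraries: without the second WT library the difference was 1.98 (limma, adjusted p = 0.00486), and without the first it was 0.74 (limma, adjusted p = 0.395). It also depends on the scaling: the difference was 0.82 without centring (limma, adjusted p = 0.413) and 1.57 with cyclic loess (limma, adjusted p = 0.0261).

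The untreated libraries of the stress experiment showed a difference of similar size from the same WT lists. Their relative log2 pileup on NM_006087 was −0.39 and −0.61, which is 1.22 above WT (SE 0.42; limma, adjusted p = 0.108). Between these 2 sets of untreated wild-type cells 1 region of the 93 was higher (1.08%) and 0 were lower (0.0%). The NM_006087 difference was 1.84 (limma, adjusted p = 0.00884) without the second WT library. KO and UT are both compared here with the same WT libraries.

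Neither stress changed the relative TUBB4A pileup past the threshold. In H2O2 the relative log2 pileup on NM_006087 was −0.66 and −0.87, both below the UT values, and the difference from UT was −0.27 (95% interval −1.2 to 0.67; limma, adjusted p = 0.778). In Starve it was −1.63 and −1.30, also below both UT values, and the difference was −0.97 (SE 0.42, 95% interval −1.9 to −0.03; limma, adjusted p = 0.434). In both comparisons 0 of the 93 regions were higher and 0 lower (0.0% each; limma), with 13 regions at an unadjusted p under 0.05 for H2O2 and 8 for Starve. Both stresses were compared with the same UT libraries.

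By pileup, the TUBB4A isoforms parted in the KO lists. On NM_001289131 the WT lists gave pileups of 69 and 229 and the KO lists 78 and 102, with 280 and 188 in UT, 172 and 314 in H2O2, and 145 and 156 in Starve. The log2 ratio of NM_006087 over NM_001289131 was 1.83 and 1.06 in KO, a mean of 1.44 ± 0.55 (SD, n = 2), and lay between −0.08 and 0.37 in the other 8 lists. In WT the mean was 0.13 ± 0.25 (SD, n = 2), a difference of 1.31 that is larger than either spread. By fold enrichment the same log2 ratio was 1.2 and 0.67 in KO, and from −1.5 to −0.09 in the other 8 lists. On that measure the isoforms also differed outside KO, in the opposite direction. The ratio was computed after the pileups had been seen, and is a description with no test.

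The relative log2 pileup of NM_001289131 accordingly differed by 0.05 between KO and WT (95% interval −0.74 to 0.84; limma, adjusted p = 0.922), against 1.36 for NM_006087. NM_001289130 lay between them, with pileups of 133 and 151 in KO and a difference of 0.72 from WT (limma, adjusted p = 0.234), while NM_001289123, with 275 and 209 in KO, differed by 1.51 (limma, adjusted p = 0.0532). Among other genes with isoform pairs held in all 10 lists, the ratio in both KO lists lay beyond the other 8 lists in 7 of 29 pairs (24.1%), and for TUBB4A in 5 of 6 pairs. The 6 TUBB4A pairs reuse the same transcripts, whose signal may overlap, and are not independent.

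The KO peak also sat further from the transcript start. Summits on NM_006087 lay at nt 366 and 368 in KO, 318 and 337 in WT, 337 and 297 in UT, 333 and 303 in H2O2, and 319 and 298 in Starve. Both KO summits were the furthest 3′ of the 10, as they were on NM_001289123 (284 and 286 against 231 to 266) and on NM_001289131 (328 and 322 against 288 to 319). On NM_001289130 the KO summits, at nt 338 and 333, overlapped those of the other lists, with 337 in the first UT list. The peak began at nt 275 in both KO lists, further 3′ than the start in any other list, which lay between nt 214 and 266. The peak ended at nt 464 and 442 in KO and at nt 372 and 460 in WT. On NM_001289131 the peaks ended by nt 391 in all lists, and at nt 381 in both KO lists.

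The summit shift on NM_006087 was 39.5 nt (SE 16.72, 95% interval −1.04 to 80.04) and did not pass the threshold (limma, adjusted p = 0.354). Over the 93 regions 3 summits were further 3′ in KO (3.23%) and 1 further 5′ (1.08%). On NM_001289131 the shift was 29 nt (SE 8.27; limma, adjusted p = 0.185). The median over all 93 regions was 3 nt.

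**Figure D3:**
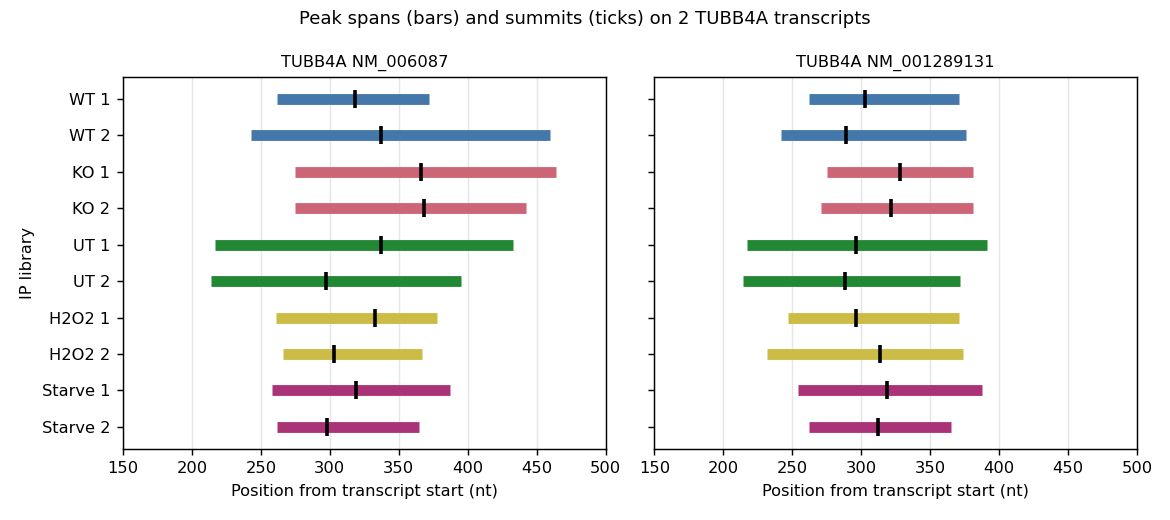
Peak spans (bars) and summits (black ticks) on TUBB4A NM_006087 and NM_001289131 in the 10 IP libraries, in nt from the transcript start. On NM_006087 the KO bars start at nt 275 and their summits (366 and 368) lie to the right of all others.

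The windowed coverage of WT and KO libraries, scaled by the authors to a fixed sum per region, gave a second view of the same IP libraries. The centre of IP coverage on NM_006087, over the stretch from nt 225 to 376 that the 4 files share, lay at nt 309.3 and 322.1 in WT and at nt 335.6 and 334.0 in KO. The difference of 19.1 nt (SE 4.8, 95% interval 6.4 to 31.7) did not pass the threshold over 359 transcripts (limma, adjusted p = 0.174). It was 12.7 nt without the first WT library (limma, adjusted p = 0.141) and 25.5 nt without the second (limma, adjusted p = 0.0536). On NM_001289130 it was 15.6 nt (adjusted p = 0.0856), on NM_001289123 13.4 nt (adjusted p = 0.173) and on NM_001289131 10.3 nt (adjusted p = 0.205), all by limma.

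Both KO centres lay beyond both WT centres on all 4 TUBB4A transcripts. The same held for 35.7% of the 359 transcripts and the opposite for 18.9%, so this order was common. The median difference over all 359 was 2.5 nt, and 0 transcripts passed the threshold in either direction (0.0%; limma), while 75 had an unadjusted p under 0.05. The summits and the centres come from the same libraries and are not independent.

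Demethylase-treated RNA could not be compared over replicates. In WT the treated columns of the 2 replicates were 1 profile up to scaling on 352 of 353 transcripts (99.7%), and in KO on 771 of 774 (99.6%), whereas the IP columns were never so (0 of 354 and 0 of 775). The treated profile was therefore counted as 1 sample per genotype and not tested. Its centre on NM_006087 lay at nt 325.9 in WT, beyond both WT IP centres, and at nt 330.3 in KO, short of both KO IP centres. On NM_001289130 and NM_001289131 it lay beyond both IP centres in both genotypes, in KO at nt 331.5 against 328.2 and 327.6, and at nt 326.1 against 323.9 and 321.8. On NM_001289123 the treated centre lay nearer the transcript start than both IP centres in both genotypes (233.8 against 242.3 and 246.5 in WT, 250.9 against 259.4 and 256.1 in KO). The treated profile peaked higher than the IP on NM_006087 in WT (12.81 against 10.71 in the first file, 11.87 against 8.7 in the second) and lower in KO (7.77 against 8.51, 8.28 against 8.96). The other isoforms did not share this contrast: in KO the treated maximum was above the IP on NM_001289130 (11.2 against 10.13, 11.39 against 10.47) and NM_001289131 (11.78 against 11.53, 11.78 against 11.29), and on NM_001289123 it was below the IP in the first WT file (12.04 against 13.43). These heights are shares of a fixed sum, so they do not show loss or gain of signal.

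**Figure D4:**
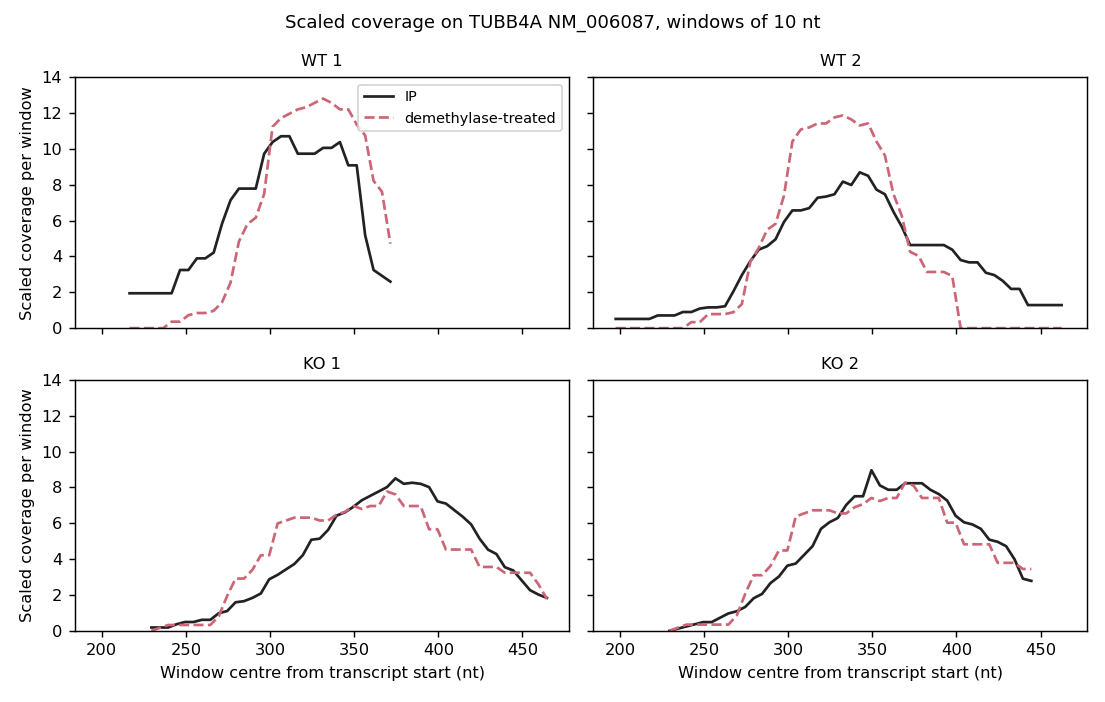
Scaled coverage per window of 10 nt on TUBB4A NM_006087 for IP (solid) and demethylase-treated IP (dashed) in the WT and KO files; the treated line of both replicates is 1 profile. The treated line peaks above the IP line in WT (12.81 against 10.71, and 11.87 against 8.7). The KO IP maximum lies at nt 370 to 379 and nt 345 to 354. In WT it lies at nt 302 to 311 and nt 338 to 347, the latter overlapping the second KO window.

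Among the other beta tubulins, TUBB2A, TUBB2B and TUBB4B had a region near the transcript start that was called in the 2 KO lists but in no WT list. These were 3 of the 11 tubulin regions in that comparison, where 16.1% of 7322 regions were called in KO alone, and 0 tubulin regions were called in WT alone (4.04%). The 4 TUBB4A regions were in all 4 lists (6.66% of regions). At a fold enrichment of at least 4, as the authors' peak caller gave it, only the TUBB2A region was left. When peaks were merged only with summits within 50 nt, 2 regions were called in KO alone, on TUBB2A and TUBB2B, and that of TUBB4B was not. Without the second WT list 2 further regions were called in KO alone, on TUBB4A isoforms, and 2 in WT alone, on TUBA1B and TUBA1C. Leaving out a list loosens the rule, so these counts could rise but not fall.

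TUBB2A (NM_001069) had peaks at nt 28 to 147 and 28 to 146 in KO, with pileups of 138 and 130 and folds of 7.88 and 7.47. The first H2O2 list held a peak there too, at nt 48 to 147, with a pileup of 63 and a fold of 2.18. The 2 KO peaks differed by 1 nt in their ends and by 8 nt in their summits (100 and 92).

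TUBB2B (NM_178012), the near-identical neighbour of TUBB2A on chromosome 6, had weaker KO peaks at nt 141 to 240 and 112 to 229, with pileups of 90 and 93 and folds of 2.64 and 2.56. It had a peak at the same place in the second UT list (nt 83 to 242, fold 4.73) and in both H2O2 lists (nt 101 to 200, fold 2.34, and nt 77 to 180, fold 14.13). Within their own lists the KO folds exceeded 17.8% and 19.1% of folds, the UT fold 58.2%, and the H2O2 folds 8.4% and 74.2%. The pileup in H2O2 was 42 and 252, so the 2 replicates differed more than H2O2 did from KO. In the first UT list the only TUBB2B peak lay elsewhere, at nt 1516 to 1645.

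TUBB4B (NM_006088) had a region near its start in 6 lists, both lists each of KO, UT and Starve. The KO peaks reached from nt 97 to 385 and 89 to 383, with pileups of 170 and 228. Those of UT (nt 49 to 191 and 48 to 147, pileups of 105 and 50) and Starve (nt 52 to 191 and 70 to 208, pileups of 171 and 152) ended by nt 208. The KO peaks thus began further 3′ and ended beyond the others. Their 2 summits, at nt 162 and 312, did not lie together. Their folds of 3.17 and 2.39 were below the 7.28 and 6.21 of Starve, and those of UT were 5.55 and 2.29. Fold scales differ between lists. Within their own lists the KO folds exceeded 33.2% and 14.4% of folds, the Starve folds 90.0% and 45.6%, and the UT folds 74.1% and 7.3%.

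The sequences at the starts of TUBB2A and TUBB2B differ, although the coding sequences of the 2 genes are very similar. The stretch from nt 21 to 50 is printed from the RefSeq start sites on GRCh38.p14, with capitals for bases inside a called peak in any list. TUBB2A is at chr6:3157495-3157524 and TUBB2B at chr6:3227604-3227633, both on the minus strand.
TUBB2A: ccgccggTCCACGCCGCGCACCGCTCCGAG
TUBB2B: gcgccttcccggtgaccccgcagtgggtgt

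The capitals assume that the deposited transcript begins at the start site of the table. The peaks of TUBB2A began at nt 28, while the first TUBB2B peak began at nt 77, beyond the stretch printed. In the first 50 nt of 16 RefSeq entries of the 10 genes, the longest run shared by 2 genes was 9 nt over 113 pairs of entries. Further into the transcripts the peaks may lie in sequence that paralogues share, and the sources used here do not say how reads that match several genes were counted.

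**Figure D5:**
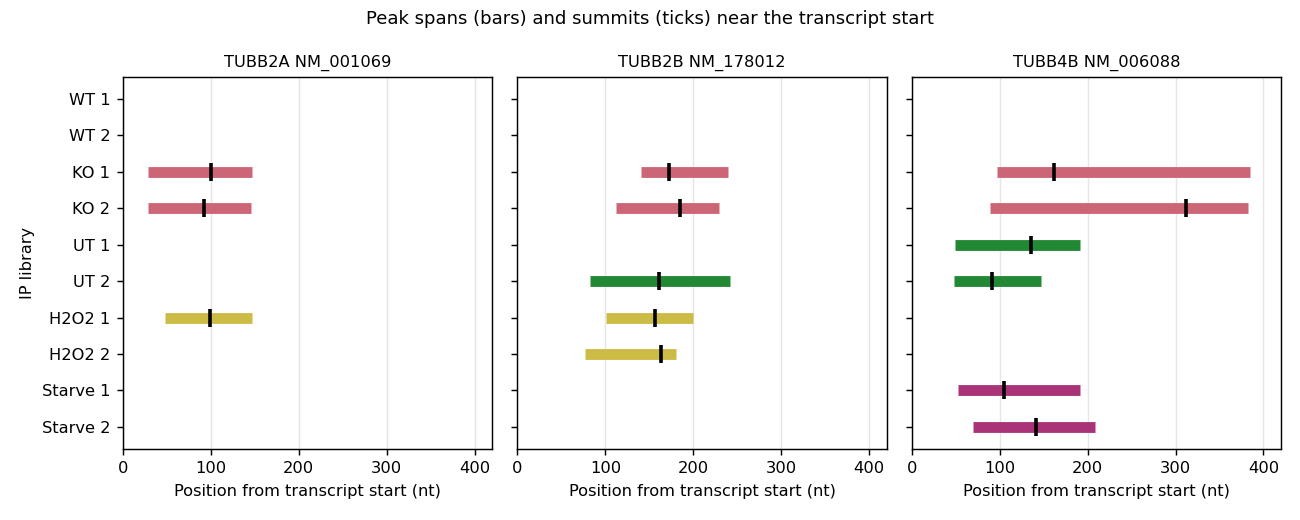
Peak spans (bars) and summits (black ticks) near the transcript start of TUBB2A, TUBB2B and TUBB4B in the 10 IP libraries, in nt from the transcript start. WT has 0 peaks in all 3 panels, KO has 1 in each, and the TUBB4B peaks of KO extend to nt 385 and 383 while those of UT and Starve end by nt 208.

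TUBB3, the neuronal isotype, had 1 peak in all, in the first H2O2 list (NM_006086, nt 72 to 171, pileup 49, fold 4.6). TUBB6, a divergent beta isotype, had 4 peaks in 3 lists, all in the body of NM_032525. A region at nt 970 to 1071 was shared by the second H2O2 list (fold 8.25) and the first Starve list (fold 4.42), and the others lay at nt 736 to 835 in the first UT list and nt 1256 to 1356 in the first Starve list. TUBB had a peak on 0 of its 7 RefSeq transcripts in 0 lists. Of 23 peaks on beta tubulins other than TUBB4A, 14 had the summit within 300 nt of the transcript start.

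The alpha tubulins had few calls, 13 peaks in all, and 1 summit within 300 nt of the start. TUBA1A had peaks in 2 lists, repeated on 3 isoforms. On NM_006009 they lay at nt 1510 to 1681 in the first H2O2 list (pileup 84, fold 2.68), and at nt 364 to 469 (pileup 190, fold 11.1) and 1700 to 1804 (pileup 170, fold 5.53) in the second Starve list. No 2 lists shared a TUBA1A region.

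TUBA1B and TUBA1C had peaks of matching height in the first WT list, at nt 820 to 961 (pileup 871, fold 1.22) and nt 688 to 840 (pileup 898, fold 1.21). Both genes encode nearly the same protein, and whether the same reads were counted for both was not tested. These folds were the lowest of all 87 tubulin peaks although the pileups were the highest. TUBA1C also had a peak at nt 119 to 218 in the second Starve list (pileup 239, fold 5.12) and at nt 1417 to 1523 in the second H2O2 list (pileup 473, fold 6.79). No alpha tubulin region was called in both lists of any condition.

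Over all lists the summit lay within 300 nt of the transcript start for 28 of 51 TUBB4A peaks (54.9%), for 15 of the 36 other tubulin peaks (41.7%), and for 41.1% of the 61237 peaks of the lists. TUBB4A summits lay from nt 223 to 368, on either side of that limit. Each transcript was counted separately, so a site can enter these counts on several isoforms.

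Neither stress gave a tubulin region of its own in both replicates. In H2O2 against UT, 0 of 19 tubulin regions were in both H2O2 lists and neither UT list (1.16% of regions), and 1, at the start of TUBB4B, was in both UT lists and neither H2O2 list (2.85%). The 4 TUBB4A regions were in all 4 of these lists (1.49%). In Starve against UT, 0 of 20 were in Starve alone (2.39%) and 0 in UT alone (1.94%), and 5 were in all 4 lists (1.45%): 4 on TUBB4A and the TUBB4B region. The TUBB4B region was also the 1 of 12 called in UT alone against WT (4.02%), with 0 in WT alone (1.59%) and the 4 TUBB4A regions in all 4 lists (2.2%). Both H2O2 lists and both WT lists thus lacked a peak at the TUBB4B start. The second H2O2 list had TUBB4B peaks at nt 681 to 783 and 870 to 983. The first Starve list, with a peak at the TUBB4B start, also had a peak at nt 644 to 743 (fold 2.93). At a fold enrichment of at least 4 the TUBB4B region was not called in UT alone in either comparison, and 1 region, on TUBB4A, was called in UT alone against Starve.

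Of 60 other genes of tubulin and microtubule biology, 46 had a peak in some list, while 44.1% of 20056 protein-coding genes did. The 60 were not matched to those genes in transcript level, and the difference was not tested. Peaks fell on 18 of 20 genes of tubulin folding, 5 of 12 other tubulins, 4 of 5 of the gamma-tubulin ring, 5 of 6 tubulin-modifying enzymes and 13 of 16 microtubule-associated genes. MAPRE1, whose protein EB1 tracks growing microtubule ends, had a region in 9 lists at nt 8 to 236 of NM_012325, with folds of 3.19 to 13.7. It was the only one of the 60 with a region in 8 or more lists. The share of all genes with such a region is not given here, so this count has no reference. TTC5, of tubulin messenger decay, had a peak in 3 lists.

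In KO alone, 3 of 17 such genes had a region, CCT6A and TCP1 of the CCT chaperonin that folds tubulin and TBCD, a tubulin cofactor, where 18.9% of genes had one, and 0 had one in WT alone (5.2%). In H2O2 alone it was 0 of 41 (2.33%), against ARL2 and VASH2 in UT alone (5.49%). In Starve alone it was CCT3 of 43 (5.34%), and in UT alone VBP1 (4.06%). In UT alone against WT, 4 of 35 had a region, PFDN2, TCP1, VASH2 and VBP1 (6.58%). The tubulin-related genes were thus called near the share of all genes in KO alone.

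Of 61 other genes with a region in all 10 lists, the relative log2 pileup of NM_006087 over the 10 libraries was most like that of SLC25A1, the mitochondrial citrate carrier (Pearson r = 0.73). Next came IGFBP2 (r = 0.67), SOX18 (r = 0.63), PTP4A1 (r = 0.54) and TYMS, thymidylate synthase (r = 0.53). The median over the 61 genes was r = 0.05 and the lowest r = −0.75. The SLC25A1 region lay on NR_046298, a noncoding RefSeq transcript of the gene. For each gene the transcript with the highest r was taken. These values describe 10 libraries in 5 conditions that share the centring, and were not tested.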

How the data were processed

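The members, gene lists and comparisons were chosen with earlier results of these data known. Tools in the submitters' processing notes are Trim Galore, HISAT and MACS2, with the build hg19. Peaks were called for each replicate with MACS2, per the file headers, on RefSeq transcripts, so positions count along the transcript. Deposited pileup is a coverage signal, and the fold enrichment (a ratio over local background), −log10 p-value and −log10 q-value are the authors' own. The deposited windows (10 nt, step 5 nt) hold coverage signal scaled by the authors and a score, treated minus IP. The control input of each list is not stated in the sources used here.

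Of 17315 transcripts 17019 (98.3%) matched a symbol of GRCh38.p14. Peaks were merged across lists at an overlap of 1 nt. Log2 pileup of the 93 regions in all 10 lists was centred on each library's median and fitted with limma 3.58.1 (R 4.3.3), Benjamini-Hochberg adjusted over all regions per contrast, threshold 0.05. Region merging and the pileup fit were tested on simulated data, the fit with a planted KO shift of 4 log2 units. That shift is larger than any TUBB4A difference here, so the simulation does not show power for these. Fits of summit position and IP centre and the isoform ratio were not simulated. Fits of summit position and IP centre, and the isoform ratio, were added after seeing the data. The 4 windowed files share 2922 windows, 0 of them on tubulins, so the planned window tests gave no tubulin value. All 10 members and, of the other microtubule genes, those with a region in 8 or more lists were named, with those specific to a condition and TTC5 added after their values were seen. The 5 genes most like TUBB4A were named by Pearson r. Alternatives were leaving out each replicate, other merging, stricter fold or q-value, centring and 1 region per gene.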

Additional observations from a re-analysis of the deposited data

How the results depend on the processing

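Peak lists hold no depth or uncalled values, and 2 replicates per condition limit every call. Tubulin region counts moved with 1 list: leaving out each replicate in turn gave 3 to 5 regions in KO alone, 0 to 2 in WT alone (against KO and against UT), 0 to 5 in H2O2 alone, 1 to 4 in UT alone against H2O2, 0 to 7 in Starve alone, 0 to 3 in UT alone against Starve and 1 to 3 in UT alone against WT. The highest counts came without the second WT list for KO and WT, without the second H2O2 list for H2O2, without the first Starve list for Starve and without the second UT list for UT. Leaving out a list loosens the rule for every region, and the shares over all regions are not given for these settings. The 7 in Starve alone lay on TUBA1A, repeated over its isoforms, and on TUBA1C. At a fold of 4 or more the counts were 1 in KO alone, 0 in UT alone against H2O2 and against WT, and 1 in UT alone against Starve. A given fold does not rank alike in each list. A fold of 7.44 exceeded 91.7% of folds in the first KO list, and 7.54 exceeded 46.9% in the second H2O2 list.

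The TUBB4A NM_006087 difference between KO and WT was 0.82 without centring (limma, adjusted p = 0.413), and passed with cyclic loess (1.57; limma, adjusted p = 0.0261) and without the second WT library (1.98), and so did UT against WT (1.84) without that library; leaving out each replicate gave 0.74 to 1.98 and 0.6 to 1.84. For NM_001289131 the KO difference was −0.39 to 0.49 over left-out replicates and turned to −0.11 with 1 region per gene, −0.49 without centring, −0.39 without the first WT and −0.11 without the second KO library, and H2O2 against UT to 0.02 without centring. The isoform ratio difference was 0.92 to 1.7 over left-out replicates and 1.35 with fold enrichment. Causes were not tested. Deviations of same-numbered libraries from their condition means correlated at r −0.26 to 0.44 (median −0.01 over 20 pairs, 4 over 0.1). With 2 libraries per condition these deviations mirror each other, so each r is counted once for each replicate number. Whether replicates pair is thus not settled. With the replicate block the NM_006087 difference stayed 1.36 (limma, adjusted p = 0.081). The planned window alternatives and the setting of pileup at or above the median gave no TUBB4A value.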
